A study of Mus musculus with 19 samples.

Results

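Knockout clone 3 of the Melan-a line was compared with the unedited parental line by bulk RNA-seq. Melan-a is an immortalised line of mouse melanocytes, the cells that make pigment. The 4 samples compared, of 19 in the series, are the 2 cultures of clone 3, chosen by their labels, and the 2 cultures of the parental line. Of the 13202 genes in the deposited table, 10803 had a mean over all 10 RNA libraries at least 1 above the lowest value of the table and were tested. The series also holds 3 other knockout clones with 2 cultures each, which served here to show where clone 3 differed, and exome, genome and tumour data that were not analysed here.

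The parental group was BAP1 wild-type and the clone 3 group was labelled BAP1 KO, made with CRISPR. No drug was given to any line, all lines grew in standard culture, and the labels place every library in a single batch. Clone 3 is 1 clonal line, so what the loss of Bap1 did and what this one clone carried besides cannot be told apart within the comparison. A clone taken through the same editing that still had Bap1 was not among the samples. The labels call the 2 cultures of a line biological replicates without saying whether they were grown separately. Each p-value thus measures the spread between cultures, pooled over all 5 lines, which may be technical.

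BAP1 is a nuclear deubiquitinase and a tumour suppressor that is often lost in uveal melanoma and mesothelioma. With its ASXL partners it removes ubiquitin from histone H2A at the lysine that Polycomb repressive complex 1 modifies, and so counters a mark of gene silencing. It also binds the chromatin cofactor HCFC1, the glycosyltransferase OGT and the FOXK transcription factors.

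The parental cultures had 37.9 and 40.6 M recovered reads and the clone 3 cultures 35.9 and 32.8 M, within the range of 30.8 to 46.8 M over the 10 libraries. The 2 cultures of clone 3 differed by a median of 0.088 per gene on the stabilised scale, the log2-like scale of the deposited values. The median was 0.045 between the parental cultures, and in neither line did any gene differ by 1 or more. In clones 1, 2 and 4 the median was 0.169, 0.157 and 0.190, and this wider spread enters the SEs and p-values below. All 8 melanocyte markers were present, with a summed level of 1.87 to 1.91 M normalised reads in the parental and 1.49 to 1.51 M in the clone 3 cultures. Of 14 keratinocyte markers 4 were in the table, summing to 266 to 298 reads in the parental and 114 to 140 in the clone 3 cultures. Of 11 fibroblast markers 2 were in the table, at 3048 to 3080 and 3029 to 3109 reads, and of 13 immune and endothelial markers 6, at 1510.2 to 1510.4 and 2095 to 2130 reads. The part of such cells in the results was not tested, and in bulk RNA fewer cells of a type and less RNA per cell cannot be told apart. Unless named otherwise, each difference below is clone 3 minus parental on the stabilised scale, with n = 2 cultures a line.

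Bap1 (chr14:31251352-31259930 in GRCm38.p6) was lower in clone 3. It stood at 4449.7 and 4392 normalised reads (reads divided by the library's size factor) in the parental cultures and at 1193 and 1098 in the clone 3 cultures, so 25.9% of the parental mean remained. The groups did not overlap, and the difference was −1.79 (SE 0.12, limma adjusted p = 5.39e-06). Where in Bap1 the edit lies was not analysed here. Clone 3 kept more Bap1 RNA than the mean of clones 1, 2 and 4, by 0.60 (SE 0.10, adjusted p = 0.00256). Against clone 2 alone (1067 and 1124 reads) the contrast did not pass (adjusted p = 0.806), and the lower levels were those of clone 1 (753 and 655) and clone 4 (491 and 359).

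The 10 largest rises in clone 3 included a receptor, a channel, an efflux pump and synaptic genes. Mrgprb1, a receptor of the Mas-related family, had 6.7 and 6.2 normalised reads in the parental line and 1214 and 1001 in clone 3 (difference 3.35, SE 0.12, adjusted p = 6.24e-08). Nrxn2, a neurexin of synaptic adhesion, went from 31.4 and 29 to 950.5 and 996 reads (2.78, SE 0.12, adjusted p = 2e-07). Steap1, a member of a family of metal reductases, went from 389.7 and 364 to 3862 and 3794 reads, which is 10.2-fold (2.86, SE 0.29, adjusted p = 5.54e-05). In all 3 both clone 3 cultures lay far above both parental cultures. Abcc2, an efflux pump for organic anions, rose from 1281 and 1244 to 9339 and 8396 reads, 7.03-fold. Pappa2, a protease that cleaves IGF-binding proteins, rose 6.76-fold, from 636 and 662 to 4569 and 4203 reads. The inward-rectifier potassium channel Kcnj13 rose 6.75-fold and the non-receptor tyrosine kinase Tec 6.06-fold. The remaining 3 of the 10 largest rises were Ighm, the constant region of the immunoglobulin mu chain (9.5 and 11.4 to 593 and 637 reads), Insyn1, a protein of inhibitory synapses (38.1 and 55.5 to 759 and 833), and Pik3r5, a regulatory subunit of PI 3-kinase gamma (101 and 113 to 1202 and 1035). Over these 3 the adjusted p was at most 1.64e-05.

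The 10 largest falls were of genes well expressed in the parental line, since on the stabilised scale only such genes can fall that far. Syt4, a synaptotagmin of vesicle traffic, stood at 6628 and 6703 reads in the parental cultures and at 80.5 and 55.5 in clone 3, or 1.02% of the parental mean (−4.97, SE 0.15, adjusted p = 2.58e-08). Gpr37, a receptor known from myelinating glia, went from 5836 and 5492 to 76.3 and 63.6 reads (−4.72, SE 0.17, adjusted p = 6.08e-08). Tgm2, a transglutaminase that cross-links proteins, went from 9434 and 9453 to 334 and 381 reads (−4.17, SE 0.11, adjusted p = 7.88e-09). The clone 3 and parental cultures were far apart in each of them. The protease inhibitor Serpine2 kept 1.47% of its parental reads, the steroid and lipid dehydrogenase Hsd17b11 2.01%, and the metal-binding metallothionein Mt2 4.35%. The arginine and lysine transporter Slc7a2 kept 5.51%, the matricellular protein Sparcl1 6.16%, and Ndrg1, a gene of stress and differentiation, 7.24%. The complement gene C4b was near 0 in clone 3, at 0 and 1.2 reads against 1792 and 1713 in the parental cultures. Its near-copy C4a moved the other way, from 55.3 and 44.9 to 175 and 198 reads (0.85, adjusted p = 0.000227), and reads of the 2 copies may be shared, so both values are uncertain.

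**Figure D1:**
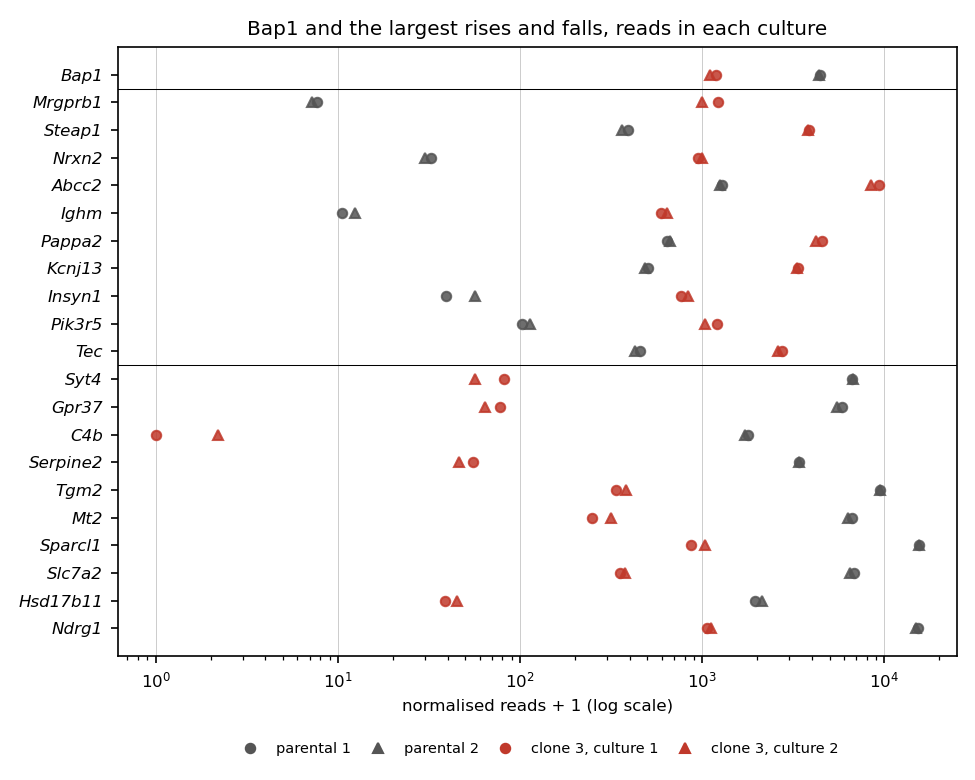
Normalised reads plus 1 (log axis) of Bap1, the 10 largest rises and the 10 largest falls in each parental culture (grey) and each clone 3 culture (red). In every gene the 2 cultures of a line sit close together and the lines do not overlap.

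Over all genes, 4304 of 10803 (39.8%) passed the limma threshold, 2146 higher in clone 3 (19.9%) and 2158 lower (20.0%), around a median of 0.013. With a difference of at least 1 as well, 691 passed (6.40%), 189 higher (1.75%) and 502 lower (4.65%). The count of calls rested on having both cultures: without 1 of the clone 3 cultures it was 2420 or 2518, and without 1 of the parental cultures 2282 or 2320. The 691 larger differences moved between 664 and 707 over the 10 libraries left out in turn. Since about 1 gene in 5 passed in each direction, each list below is read against 19.9% and 20.0%. These shares belong to the fit with all libraries. With a clone 3 or parental culture left out, fewer of all genes passed in each direction. List counts from those fits are therefore not to be read against 19.9% and 20.0%. Nor are they set here beside the share over all genes in the same fit. A drop in them thus shows neither a fall to the background nor a lean beyond it.

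Interferon-stimulated genes, the antiviral genes switched on by interferon, were lower as a group in clone 3. Of 18 type I interferon genes tested, 16 fell and 0 rose, with a median of −1.01, and 9 fell by at least 1. Without any 1 of the 4 cultures 13 fell, and under other scalings 14 to 17. Against the mean of clones 1, 2 and 4, 11 of the 18 were lower in clone 3, where 11.6% of all genes were. Far fewer were with either clone 3 culture left out. Against the parental line the median of the list was 0.09 in clone 1, −0.75 in clone 2 and −0.67 in clone 4. The list was thus lower in clones 2 and 4 as well. Rsad2, the antiviral enzyme viperin, went from 792 and 864 to 36.6 and 49.7 reads (−2.43, SE 0.16, adjusted p = 3.66e-06). Ifitm3, which blocks entry of enveloped viruses, went from 8975 and 8804 to 2277 and 2536 (−1.81, SE 0.20, adjusted p = 0.000109). Irf9, a transcription factor of the response, went from 545 and 507 to 246 and 270.4 reads (adjusted p = 0.00377). Clone 3 and parental cultures overlapped in none of these 3 genes.

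An interferon-stimulated response element stands before the start of many such genes and is bound by interferon-activated transcription factors. The RefSeq promoters (GRCm38.p6, 250 bases before to 50 after the start) were searched for the core of this element, written here as GAAA, any 2 bases, then GAAA, on both strands, with overlapping matches counted separately. It was found in 8 of the 14 type I genes that have a promoter in the table, against 3.23% of the 8667 tested genes with one and 3.44% of all 32851 promoters. The element was 1 of 13 patterns searched and was picked with the fall of these genes known, so the count is a description. It was also in 2.88% of the genes that rose and 4.44% of those that fell in clone 3. Of the other patterns, CCAAT differed more, in 39.4% of the genes that rose and 47.9% of those that fell. TGCGCNC, 1 form of the metal-response core, had 1 match before the start of Mt2 and 0 before that of Mt1. Only that form and the 250 bases before the start were searched, so the 0 does not show that Mt1 lacks the element. Over all tested promoters CCAAT was found in 43.3% and TGCGCNC in 31.9%. A match is no evidence that a factor binds there. The stretches from 160 to 40 bases before the start of Rsad2 and of 3 more genes, chosen for holding the element there after their values were seen, are shown with the matches in capitals. Ifit1 (348 and 330.1 to 28.2 and 26.6 reads) lies at chr19:34640729-34640849 on the plus strand and Ifit3 (414 and 419.9 to 48.1 and 48.5 reads) at chr19:34583369-34583489 on the plus strand. Isg15 (280.1 and 254 to 14.6 and 12.7 reads) lies at chr4:156200858-156200978 on the minus strand and Rsad2 at chr12:26456492-26456612 on the minus strand. Each is written 5′ to 3′ along the strand of its gene.
Ifit1: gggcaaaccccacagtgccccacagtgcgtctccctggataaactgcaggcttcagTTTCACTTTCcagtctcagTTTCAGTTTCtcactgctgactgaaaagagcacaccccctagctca
Ifit3: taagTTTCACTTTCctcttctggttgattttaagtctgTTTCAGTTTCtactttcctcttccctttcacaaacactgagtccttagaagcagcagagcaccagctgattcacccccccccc
Isg15: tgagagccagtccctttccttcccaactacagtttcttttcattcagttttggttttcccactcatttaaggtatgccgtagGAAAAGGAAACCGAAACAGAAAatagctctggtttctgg
Rsad2: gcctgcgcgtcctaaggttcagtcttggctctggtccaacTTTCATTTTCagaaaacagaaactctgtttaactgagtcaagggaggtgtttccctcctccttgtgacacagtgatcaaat

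Of 10 interferon-gamma genes tested 9 fell and 0 rose (median −0.65), with 5 or 6 falling without 1 of the 4 cultures. Irgm1, an immunity-related GTPase, went from 614 and 683 to 79.5 and 92.4 reads (−1.78, adjusted p = 0.000211) and its relative Irgm2 from 188 and 201 to 8.4 and 15 (−1.40, adjusted p = 4.94e-05). The exception was Cd274, which encodes the checkpoint ligand PD-L1, at 497 and 465 reads in the parental and 543 and 492 in the clone 3 cultures (difference 0.08, SE 0.17, adjusted p = 0.743).

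The MHC class I pathway, which shows peptides to T cells, had 8 of 15 genes lower and 1 higher (median −0.37). Without 1 of the 4 cultures 5 to 7 fell and 0 rose. H2-D1, a class I heavy chain, went from 2189.6 and 2361 to 407 and 483 reads (−1.98, SE 0.21, adjusted p = 7.2e-05), although reads of class I heavy chains can be shared among copies. Tap2, a peptide transporter subunit, went from 1218 and 1188 to 274 and 314 (−1.57, SE 0.10, adjusted p = 3.4e-06). B2m, the light chain, held 41387 and 41057 reads in the parental line and 29322 and 29963 in clone 3 (adjusted p = 0.0472), a call lost without any 1 of the 4 cultures and by voom on size factors. Also lost without any 1 of the 4 was that of the chaperone Calr, which was higher (0.58, adjusted p = 0.027). Other surface signals moved both ways: Lgals9 fell (−1.98), Raet1e, an NKG2D ligand, fell (−1.38), while Lgals3 (1.26) and Nectin2 (1.04) rose (adjusted p at most 0.00565).

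**Figure D2:**
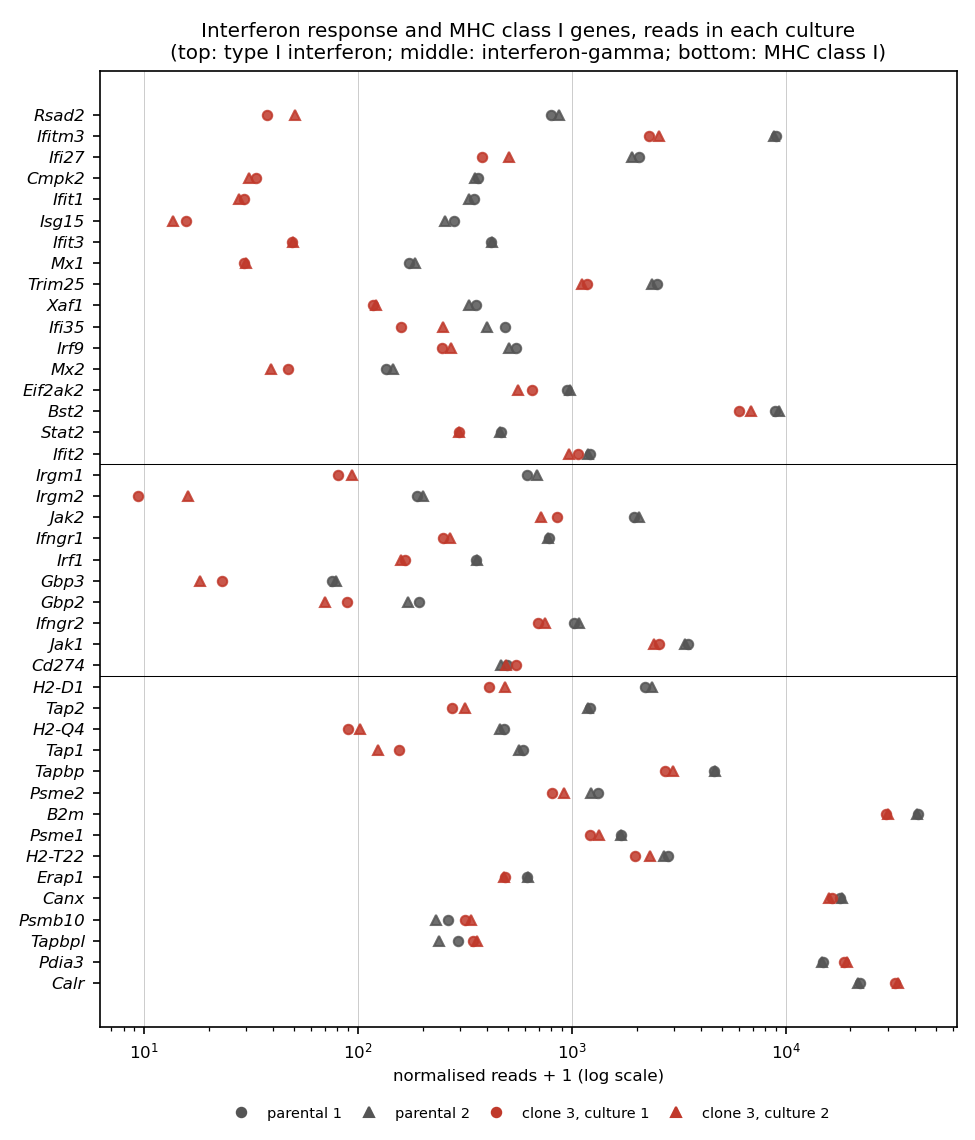
Normalised reads plus 1 (log axis) of type I interferon, interferon-gamma and MHC class I genes in the parental (grey) and clone 3 (red) cultures, each block ordered by its difference on the stabilised scale. In reads, Isg15 and Rsad2 fell furthest in the upper block, to 5.12% and 5.21% of the parental mean, and Cd274 overlaps between the lines.

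Genes shared by the neural crest and Schwann cells, the embryonic relatives of melanocytes, were lower too. Of 12 tested, 8 fell and 0 rose (median −1.54, and 7 fell by at least 1), and 7 or 8 fell without 1 of the 4 cultures. Against the mean of the other clones 8 of the 12 were lower as well, where 11.6% of all genes were. Fewer were with either clone 3 culture left out. The median of the list against the parental line was −0.002 in clone 1, −0.24 in clone 2 and −0.77 in clone 4. Besides Gpr37, the cadherin Cdh19 went from 2283 and 2295 to 199 and 161 reads (−2.84, SE 0.16, adjusted p = 1.6e-06), and the adhesion molecule Ncam1 from 3379 and 3356 to 968 and 893 (−1.67, adjusted p = 7.77e-05). Sox9, a crest transcription factor, did not pass (248 and 278 reads in the parental line, 236 and 199 in clone 3, −0.17, adjusted p = 0.528).

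Matrix and adhesion genes moved mainly downward. Of 20 collagen and matrix glycoprotein genes 10 fell and 0 rose (median −0.32), with 7 or 8 falling without 1 of the 4 cultures. The matrix phosphoprotein Spp1 went from 105444 and 105735 to 17131 and 16951 reads (−2.62, SE 0.26, adjusted p = 4.42e-05). Of 16 integrins and cadherins 7 fell and 2 rose (6 or 7 and 1 without 1 of the 4 cultures). Integrin Itgb8 fell (−1.82, adjusted p = 8.05e-05), E-cadherin Cdh1, from 96.2 and 123 to 13.6 and 11.6 reads, fell as well (−0.95, adjusted p = 0.000191), and the common beta chain Itgb1 did not pass (0.08, adjusted p = 0.595). Among complement and coagulation genes 6 of 11 fell and 3 rose. The clotting inhibitor Tfpi rose from 22.9 and 19.4 to 111 and 84.4 reads (adjusted p = 0.00256).

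**Figure D3:**
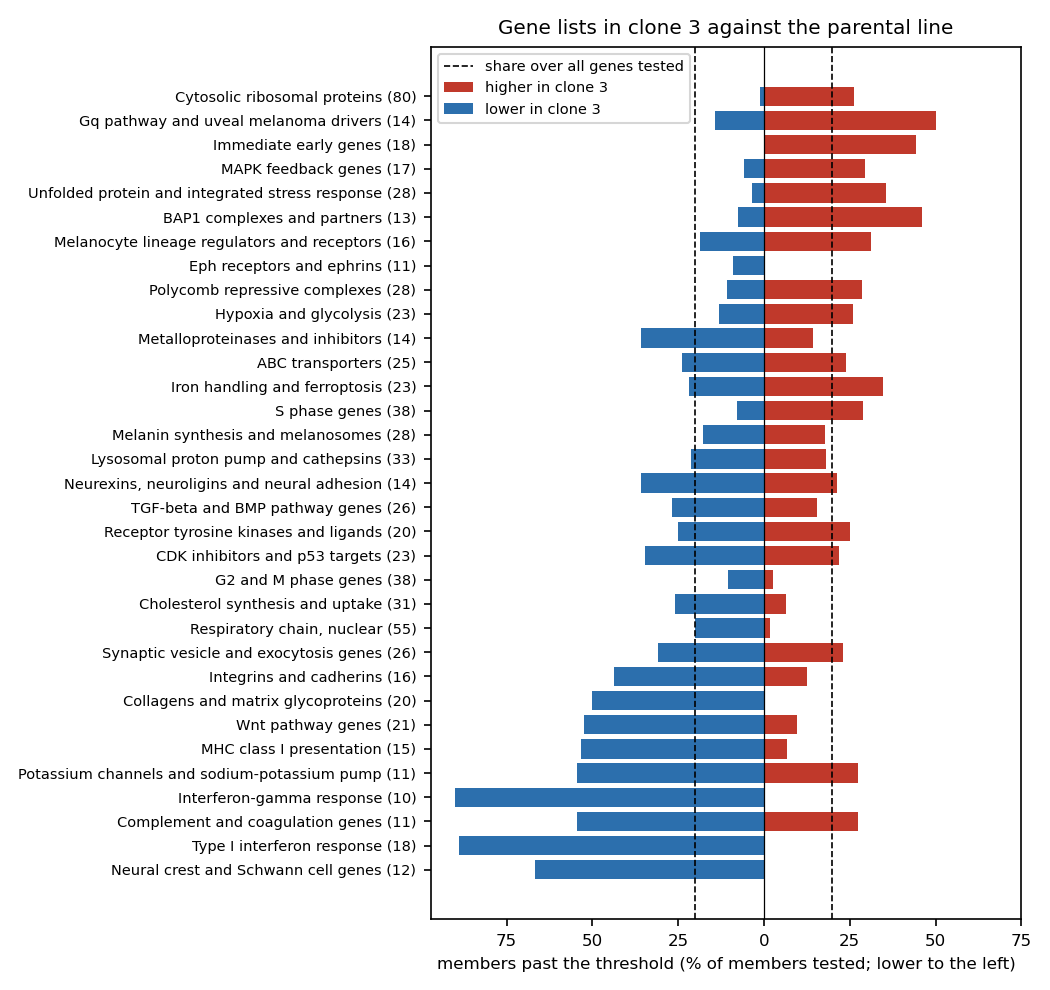
Share of the tested members of each gene list (number tested in brackets, lists of 10 or more) that were higher (red) or lower (blue) in clone 3 past the threshold, ordered by median difference, with dashed lines at the shares over all genes. The interferon and neural crest lists reach furthest to the left.

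Immediate early genes, mostly transcription factors that respond quickly to growth signals, moved upward where they passed. Of 18 tested 8 rose and 0 fell (median 0.38), but only 2 or 3 rose without 1 of the 4 cultures. Fosl2, an AP-1 subunit, went from 1258 and 1239 to 6113 and 5779 reads (2.09, SE 0.22, adjusted p = 7.1e-05). Egr1, a zinc-finger factor, at 252 and 224 parental and 1059 and 975 clone 3 reads (adjusted p = 0.0167), lost its call without any 1 of the 4. Of 17 MAPK feedback genes 5 rose and 1 fell (median 0.36). Etv4, an ETS factor, went from 2.9 and 7.9 to 365 and 389 reads (2.18, adjusted p = 0.00209), and Spred3, a brake on Ras signalling, from 421 and 456 to 1488 and 1370.5 (1.39, adjusted p = 0.00293). Of 14 genes of the Gq pathway and other drivers of uveal melanoma, 7 rose and 2 fell, 3 to 5 of them rising without 1 of the 4 cultures. Yap1, a growth coactivator, rose 2.22-fold, from 32726 and 31542 to 72079 and 70291 reads (1.14, adjusted p = 4.88e-05), and the splicing factor Srsf2 2.07-fold, while the phospholipase Plcb4 fell from 501 and 499 to 83.6 and 94.8 (−1.47, adjusted p = 0.000637). The G protein genes Gnaq (−0.22, adjusted p = 0.142) and Gna11 (0.18, adjusted p = 0.191) did not pass.

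Genes of protein folding and stress moved mainly upward: of 28 unfolded protein and integrated stress response genes 10 rose and 1 fell (median 0.29), with 6 or 7 rising without 1 of the 4 cultures. The transcription factor Xbp1 went from 1837 and 1845 to 3823 and 3932 reads (1.00, adjusted p = 0.00198) and the cystine transporter Slc7a11 from 1741 and 1829 to 5032 and 4145 (1.27, adjusted p = 0.000609). Atf4, the factor at the centre of the integrated stress response, did not pass (−0.07, adjusted p = 0.771). Of 80 cytosolic ribosomal protein genes 21 were higher and 1 lower (median 0.42). The 26.25% that were higher was not far from the 19.9% of all genes, and the 1.25% lower was below their 20.0%. Fewer were higher without 1 of the 4 cultures, and each culture of clone 3 gave a median of 0.34 or 0.50. Rpl12 went from 24426 and 23752 to 47371 and 53213 reads (1.05, adjusted p = 0.00263). Rpl22 fell (−0.54, adjusted p = 0.00451) while its paralog Rpl22l1 rose (1.05, adjusted p = 0.00464). Among nuclear genes of the respiratory chain 1 of 55 rose and 11 fell, and the 20.0% that fell was the share over all genes. Fewer fell without 1 of the 4 cultures.

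The partners of BAP1 moved upward where they moved. Of 13 tested in its complexes 6 rose and, apart from Bap1 itself, 0 fell, although 1 or 2 rose without 1 of the 4 cultures. Ogt went from 3924 and 4311 to 8727 and 7349.6 reads (0.93, SE 0.16, adjusted p = 0.00151), and Asxl1 from 3286 and 3143 to 4608 and 4169 (0.43, adjusted p = 0.0116, lost without 1 of 3 cultures), while Asxl2 did not pass (0.04, adjusted p = 0.883). Of 28 Polycomb genes, 8 rose and 3 fell (2 to 4 and 0 to 1 without 1 of the 4 cultures). Of these, 3 that rose lie on chromosome 5 and 1 that fell on chromosome 15, the chromosomes shifted in clone 3 as described further on, and off both 5 of 22 rose and 2 fell. The ring-finger components Pcgf3 (877 and 910.1 to 2006 and 1854 reads, adjusted p = 0.00015) and Pcgf6 (603 and 664 to 1255 and 1318, adjusted p = 0.000141) rose. The core subunits Ezh2 (0.34, adjusted p = 0.0547), Suz12 (0.10, 0.631), Rnf2 (0.09, 0.618) and Bmi1 (−0.06, 0.721) did not pass.

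Pigment genes moved both ways, in shares near those of all genes. Of 28 melanin and melanosome genes 5 rose and 5 fell (17.9% each way, median −0.02), against 19.9% and 20.0%. Fewer rose and fewer fell without 1 of the 4 cultures. Tyr, the rate-limiting enzyme of melanin synthesis, fell from 41486 and 42022 to 25767 and 23642 reads (−0.75, SE 0.14, adjusted p = 0.00201), and the small GTPase Rab32, which brings enzymes to melanosomes, rose from 2266 and 2381 to 4554 and 4699 (0.94, adjusted p = 0.0051). The melanosome protein Mlana, at 86264 and 85041 parental and 48739.9 and 52073 clone 3 reads (adjusted p = 0.0101), and the transporter Slc45a2 (adjusted p = 0.0414) lost their calls without any 1 of the 4 cultures. The master regulators Mitf (0.10, adjusted p = 0.476) and Sox10 (−0.10, adjusted p = 0.67) did not pass. Mc1r, the receptor for melanocortin, rose 2.82-fold, from 2341 and 2264 to 6332 and 6633 reads (1.42, adjusted p = 0.000104), and Pax3, a lineage factor, from 6991 and 7256 to 12107 and 11529 (0.71, adjusted p = 0.00048). Irf4, a regulator of Tyr, fell from 5699 and 5518 to 2496 and 2255 (−1.18, adjusted p = 0.000533). The Id proteins, inhibitors of basic helix-loop-helix factors and targets of BMP signals, fell in 3 of 4 members: Id4 from 3028 and 3038 to 213 and 221 reads (−3.06, adjusted p = 7.72e-06), Id3 from 2198 and 2119 to 526 and 662 (−1.60) and Id2 from 15445 and 15489 to 6082 and 6016 (−1.33). Id1 did not pass (275 and 243 reads in the parental line, 205 and 255 in clone 3, −0.11, adjusted p = 0.789).

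Wnt pathway genes moved mainly downward. Receptor kinases and their ligands (25% higher, 25% lower) and ABC transporters (24% and 24%) moved both ways, not far from the 19.9% and 20.0% of all genes. Of 21 Wnt pathway genes 11 fell and 2 rose (7 and 0 to 1 without 1 of the 4 cultures), with the receptor Fzd4 going from 727 and 639 to 124 and 147 reads (−1.54, adjusted p = 8.72e-06) and the coactivator Ctnnb1 from 75130 and 74579.5 to 46054 and 44542 (−0.72, adjusted p = 0.00169). The VEGF receptor Kdr fell from 516 and 548 to 29.3 and 28.9 reads (−2.09, adjusted p = 1.6e-06), and the receptor kinase Axl rose from 14647 and 14076 to 25509.6 and 24715 (0.80, adjusted p = 0.00427). In iron handling 8 of 23 genes rose and 5 fell (6 or 7 and 2 or 3 without 1 of the 4 cultures): besides Steap1, the ferroxidase ceruloplasmin, Cp, fell from 3405 and 3445 to 494 and 411 reads (−2.52, adjusted p = 2.54e-06). Among 25 ABC transporters 6 rose and 6 fell, with the drug-efflux pump Abcg2 going from 1702 and 1587 to 198 and 224 (−2.27, adjusted p = 4.66e-07) against the rise of Abcc2. Of the sodium pump subunits Atp1b2 fell (2422 and 2352 to 114 and 109 reads) and Atp1b1 rose (544 and 491 to 1347 and 1232), both with an adjusted p of at most 0.000103.

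Against the parental line, 11 of 38 S phase genes were higher and 3 lower, with 2 to 5 and 0 to 1 without 1 of the 4 cultures, and of the 11 that rose 5 lie on chromosome 5. Cdt1, which licenses replication origins, went from 305 and 301 to 705 and 718 reads (0.91, adjusted p = 0.00189). Of 38 G2 and M phase genes 1 was higher and 4 lower. Their median of −0.15 ran from −0.42 to 0.03 under other scalings, the 0.03 being after quantile normalisation. Against the mean of clones 1, 2 and 4, 26 of these 38 were lower in clone 3 and 0 higher, where 11.6% of all genes were lower, and 19 to 25 were lower under other scalings. With 1 clone 3 culture left out 3 were. The proliferation marker Mki67 stood at 67.7 and 62.5 reads in the parental cultures, 26.1 and 30 in clone 3 and, for clones 1, 2 and 4 in turn, 134 and 113, 319 and 218, and 41.3 and 84.5 (clone 3 minus the other clones −0.84, SE 0.12, adjusted p = 0.00121).

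Some genes set clone 3 apart from the parental line and from each other knockout clone. By the direct contrast with the mean of clones 1, 2 and 4, 2344 genes (21.7%) passed, 1094 higher (10.1%) and 1250 lower in clone 3 (11.6%), and 562 or 561 with 1 clone 3 culture left out. In 438 genes (4.05%), 180 higher (1.67%) and 258 lower (2.39%), clone 3 was apart from all 4 other lines with 1 sign. That count was 113 or 121 without 1 clone 3 culture, 241 or 243 without 1 parental culture and 277 without culture 1 of clone 2. Syt4 was the extreme case: clone 3 held 80.5 and 55.5 reads, whereas the gene rose in clones 1, 2 and 4 (reads of 18889 and 21849, of 29367 and 25727, and of 33177 and 24281) (clone 3 minus the others −6.85, SE 0.13, adjusted p = 4.62e-10). Mcoln3, a cation channel of endosomes and lysosomes, had the same pattern, with 16.7 and 10.4 reads in clone 3 against 714 and 622, 1534 and 1201, and 1690.1 and 1473 in clones 1, 2 and 4 (−3.23, adjusted p = 5.99e-08). Tgm2 fell in all clones but furthest in clone 3 (−2.76, adjusted p = 5.99e-08). The fibril-associated collagen Col14a1 (−2.71) and Fah, the last enzyme of tyrosine breakdown (−2.65), complete the 5 lowest.

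On the higher side, Nrxn2 held 950.5 and 996 reads in clone 3 against 18.4 and 12.4, 130.2 and 86.5, and 45.9 and 60.5 in clones 1, 2 and 4 (2.55, SE 0.10, adjusted p = 1.57e-07). The synaptic vesicle protein Sv2a went from 4522 and 4305 reads in the parental line to 11838 and 11950 in clone 3 and stood at 1818 and 2216, 4392 and 4532, and 2778 and 3111 in the other clones (1.93, adjusted p = 9.42e-07). Lck, a Src-family kinase best known from T cells, rose in clone 3 and fell in the others, at 216 and 233 reads in the parental, 408 and 468 in clone 3 and 9.6 and 14.6, 33.6 and 58.9, and 18.4 and 42.9 in clones 1, 2 and 4 (1.91, adjusted p = 3.94e-06). Pik3r5 (2.24) and Steap1 (1.88) complete the 5 highest. Synaptic genes thus lay on both sides, with Nrxn2 and Sv2a higher and Syt4 lower. Of 26 synaptic vesicle and exocytosis genes tested, 6 rose and 8 fell against the parental line (4 or 5 and 5 or 6 without 1 of the 4 cultures).

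**Figure D4:**
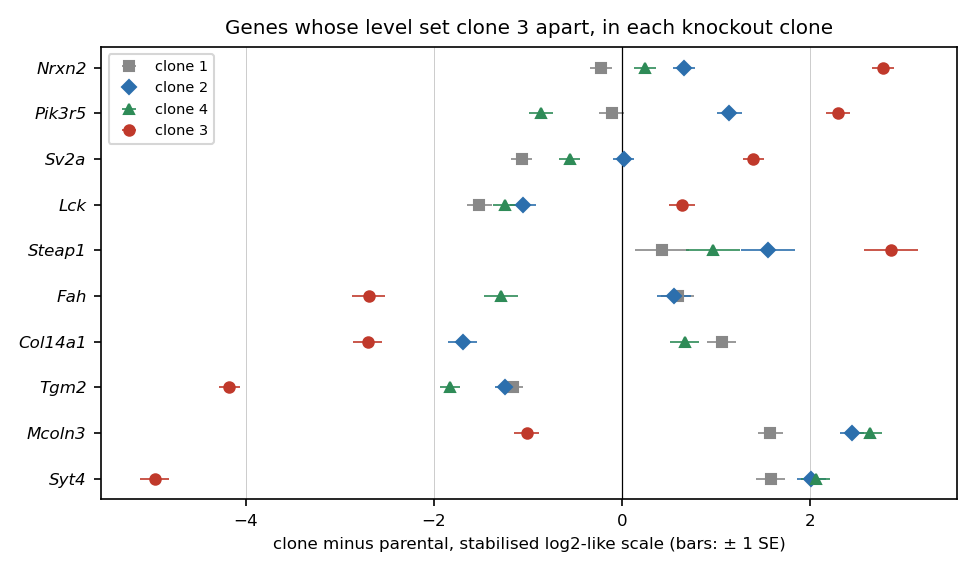
Difference from the parental line on the stabilised scale (with 1 SE) of the 5 highest and 5 lowest genes that set clone 3 apart, in clone 3 (red circles) and in clones 1, 2 and 4. Syt4, Mcoln3, Lck, Sv2a, Pik3r5, Col14a1 and Fah have opposite signs in clone 3 and in at least 2 of the other clones.

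The genes of 2 chromosomes were shifted as a group in clone 3. Relative to the median of all genes, the 707 tested genes of chromosome 5 had a median of 0.34 (0.34 and 0.35 in the 2 clone 3 cultures), and 49.9% of them were higher and 9.34% lower. The 446 genes of chromosome 15 had a median of −0.28 (−0.30 and −0.28 in the 2 cultures), with 5.16% higher and 39.5% lower. No other chromosome was further than 0.13 from 0, chromosome 4 being at −0.13. Of its 693 genes 30.0% were lower and 12.4% higher, and against the other clones 182 were lower and 25 higher. On chromosome 4 the medians of clones 1, 2 and 4 were −0.01, 0.05 and 0.01. As log2 of reads the medians were 0.40 and −0.32. The shift ran along the chromosomes: of windows of 10 Mb with at least 20 genes, all 11 on chromosome 5 had a median above 0 (0.05 to 0.47) and all 7 on chromosome 15 one below 0 (−0.63 to −0.20). In clones 1, 2 and 4 the medians were 0.04, 0.04 and 0.23 on chromosome 5, and −0.003, −0.02 and −0.002 on chromosome 15. Genes of 1 chromosome are not replicates, so no test is given, and the exome libraries of these lines were not analysed here.

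**Figure D5:**
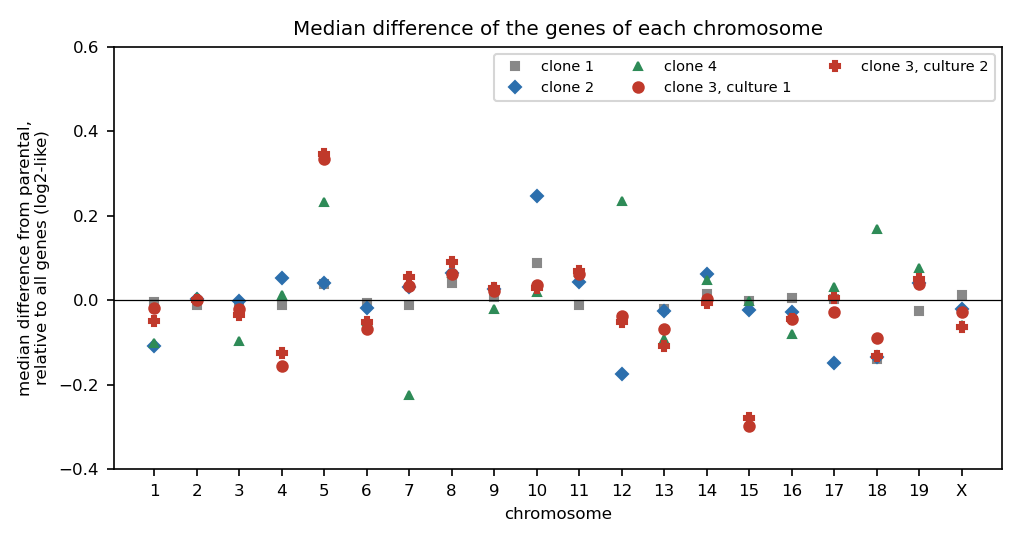
Median difference from the parental line of the tested genes of each chromosome, relative to all genes, in each clone 3 culture (red) and in clones 1, 2 and 4. In clone 3 chromosomes 5 and 15 stand apart from the other chromosomes.

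Named genes on these chromosomes moved both with and against the shift. On chromosome 5, Steap1, Tec, Fosl2 and Pcgf3 rose, and Sparcl1, Spp1, Hsd17b11 and Kdr fell. On chromosome 15, Ndrg1 and Col14a1 fell by far more than the median of their chromosome. When each library was centred per chromosome, Slc45a2, the Polycomb gene Cbx7 and the respiratory gene Ndufb9, which lie on chromosome 15, lost their calls, and so did Mmp11 and Lta4h on chromosome 10 and Lrp5 on chromosome 19. Away from chromosomes 5 and 15, 3682 of 9643 genes (38.2%) passed, 1767 higher and 1915 lower.

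The nearest tested genes on either side of the 25 named largest and most distinct genes gave 50 neighbour pairs, of which 24 passed, where 39.8% of all genes did. In 18 the sign was that of the named gene, where 19.9% of all genes were higher and 20.0% lower. Among them, Steap2, Nfxl1 and Slain2 on chromosome 5 and St3gal1, Deptor and Gm18787 on chromosome 15 moved with the shift of their chromosome. Spp1 and Klhl8 on chromosome 5 moved against it. What neighbours shared was not tested. The neighbours given here were chosen after their values were seen. Steap2, next to Steap1, rose (1530.3 and 1568 to 4029.8 and 3726 reads, adjusted p = 3.96e-05), as did Mrgprx2 beside Mrgprb1, from 1 and 3.5 to 188 and 158 reads (adjusted p = 1.21e-05). Mt1, the metallothionein gene beside Mt2, fell (13529 and 12919.7 to 2660 and 3117 reads, adjusted p = 0.000758), and Ctxnd1 beside Fah fell as well (1592 and 1622 to 128 and 174 reads, adjusted p = 8.72e-06). Neither neighbour of Syt4, Pik3c3 (−0.10, adjusted p = 0.465) nor Slc25a46 (0.22, adjusted p = 0.148), passed.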

How the data were processed

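Bulk RNA-seq of 10 Melan-a libraries was used, from stranded polyadenylated RNA per the labels' protocols. The authors deposited 1 table of variance-stabilised expression, in log2-like values, for 13202 genes; no source used here names the aligner, counter or stabilising tool, and the submitters' processing notes list the builds GRCm38 and mm10. Its lowest value, 6.61, marked no reads. Inverting the values gave whole reads for 100% of values (within 0.01) in every library, and normalised reads are these reads divided by the library's size factor. Differences on the stabilised scale understate the change of weakly expressed genes.

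Genes with a mean at least 1 above the lowest value were kept (10803). The main test was limma 3.58.1 in R 4.3.3 with a mean-variance trend on the deposited log2-like values, all 10 libraries fitted as 5 lines, two-sided, with Benjamini-Hochberg adjustment over all genes tested and a threshold of 0.05. The fit was tested on simulated data. Groups came from the labels. Gene positions came from RefSeq (GRCm38.p6), matched by gene ID for 10796 of the tested genes, and promoters from the RefSeq table of that build. Other steps used Python 3.11.15 and pandas 2.3.3.

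The genes named are Bap1, the 10 largest rises and falls past the threshold whose cultures did not overlap, the 5 highest and 5 lowest genes apart from every other line, and in each of 42 lists the 2 largest rises and falls past the threshold and members central to the list. Clone 3, the lists and the rule were chosen with earlier results of these data known, and the central members, a few symbol aliases and the 13 promoter patterns were set after values were seen. Alternatives were the filter, the scaling, the libraries in the fit, a replicate block, leaving out each library and, chosen after seeing the data, limma voom on the recovered reads. The text describes some of the genes this rule gave, and 2 of them, left out of every count of named genes, are not reported here. Single-cell, exome and genome data were not analysed here.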

Additional observations from a re-analysis of the deposited data

Results flagged for a closer look

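Of the 168 genes named by rule, 30 had an effect in clone 3 that differed from that in each of clones 1, 2 and 4 with 1 sign, by limma contrasts of clone 3 with each clone (the highest adjusted p was 0.0493). Over all genes tested 487 did so, or 4.51%, but 10 of the named genes were picked for standing apart from every other line and others for a large difference, so the count of 30 is partly set by that choice. The values below are clone 3 minus the mean of the other 3 clones on the stabilised scale. That each clone had to differ, rather than their mean, was set after the values were seen.

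Higher in clone 3 were 15 genes. The adhesion, vesicle and signalling genes among them were Nrxn2 (2.55), Pik3r5 (2.24), Sv2a (1.93), Lck (1.91), Fosl2 (1.30), Yap1 (1.04), Pdgfa (0.70), Mdm4 (0.68), Pax3 (0.65), Pcgf3 (0.64) and Kit (0.52). The rest were Steap1 (1.88), Pappa2 (1.51), Abcc2 (0.59) and C4a (0.53). Kit, the stem cell factor receptor, did not pass against the parental line.

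Lower in clone 3 were 15 genes. The furthest were Syt4 (−6.85), Mcoln3 (−3.23), Tgm2 (−2.76), Col14a1 (−2.71), Fah (−2.65) and Gpr37 (−2.49), followed by Id4 (−2.19), C4b (−2.16), Ndrg1 (−1.98) and Cdh19 (−1.77). The smaller differences were Abcg2 (−1.28), Hsd17b11 (−1.15), Vamp3 (−0.94), Raet1e (−0.87) and Rpl22 (−0.82).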

How the results depend on the processing

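No gene named by rule changed direction under any alternative run. Of the 147 named genes called against the parental line, 105 kept their call whichever of the 4 cultures compared was left out and 42 lost it without at least 1, while 14 lost it under a setting that left nothing out. The 4304 calls became 7507 with only the lines compared and ran from 2282 to 4986 over the libraries left out in turn. The 691 larger differences became 1338 and 1350 by voom, whose scale does not flatten low genes, and ran from 664 to 707 with a library left out. The calls against the other clones (2344) ran from 561 to 3162 and the genes apart from every line (438) from 113 to 555. Bap1 stayed between −1.84 and −1.74 with a library left out.

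The chromosome 5 median, 0.34, was 0.295 without a filter, 0.364 with a filter at 2, 0.299 after quantile normalisation, 0.404 as log2 of reads and 0.334 to 0.346 with a culture left out. That of chromosome 15, −0.28, was −0.217, −0.317, −0.351, −0.323 and −0.299 to −0.271 in the same order. The causes were not tested.

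Replicate numbers were not taken to pair the samples, since the correlation of same-numbered deviations was −0.087 between clone 3 and the parental line. Over the 10 pairs of lines it ran from −0.128 to 0.727 and was over 0.1 in 5, all of them pairs of clones. For clone 3 it was 0.305 with clone 1, 0.394 with clone 2 and −0.026 with clone 4. What the clones shared by replicate number was not tested. With the number as a replicate block the fit called 4885 genes, 2977 against the other clones and 600 apart from every line. Tests of counts by edgeR and DESeq2 were planned and not run; voom took their place. The 2 cultures a line limit the precision, and the depth limits what can be said of genes near 0 reads, such as C4b in clone 3.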

Other observations

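Of the 10 protein genes of the mitochondrial genome in the table, 3 (COX2, ATP6 and COX3) stood at 9.24 to 40.5 normalised reads in the 4 cultures compared, far below the other 7. Of those 7, ND6 fell in clone 3, from 6021 and 7289.9 to 2986 and 2849.7 reads (−1.13, adjusted p = 9.9e-05). The nuclear RNA Malat1 stood at 16521 and 17739.8 reads in the parental and 20189.6 and 17900.1 in the clone 3 cultures and did not pass (adjusted p = 0.549).

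Of 9 tested genes used to sort uveal melanomas into class 1 and class 2, 4 fell and 2 rose in clone 3 (4 and 1 without 1 of the 4 cultures). Robo1, a guidance receptor, fell from 304 and 350.3 to 38.7 and 34.7 reads (−1.49, adjusted p = 4.25e-05), and Ecm1, an extracellular matrix protein, rose from 286 and 243 to 1533 and 1728 (2.06, adjusted p = 0.00153). Id2 and Cdh1, given above, fell too, as did Rab31, added to complete the 4 (−0.69, adjusted p = 0.00238). Lta4h rose (0.27, adjusted p = 0.0446). Whether these genes together point to either class was not tested. Of 23 genes of cell-cycle inhibition and the p53 response 8 fell and 5 rose (4 or 5 and 3 without 1 of the 4 cultures), among them Sesn1, a stress-induced sestrin, lower (222 and 270.2 to 54.4 and 62.4 reads, adjusted p = 0.000251), and Mdm4, an inhibitor of p53, higher (2150.5 and 2272 to 5253 and 4565, adjusted p = 0.000286).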
